A study of Mus musculus with 16 samples.

Results

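Foxf1, Foxf2, Foxl1, Foxc1, Foxc2, Foxd1, Foxd2, Foxp1, Foxp2 and Foxp4 encode forkhead transcription factors known from mesenchyme, and their RNA was followed in the facial ectoderm and facial mesenchyme of mouse embryos. These 10 genes were taken by name, with earlier results of these data known but no threshold on a measured value, out of 44 forkhead genes and 30286 gene symbols in the deposited table. All embryos were C57BL/6 at embryonic day 12, and the groups were wild-type (WT) ectoderm, Esrp1 knockout (KO) ectoderm, WT mesenchyme and Esrp1 KO mesenchyme of the facial prominences, the buds of tissue that become the face. The 16 libraries, 4 per group, were each made from 6 to 7 pooled embryos whose layers had been parted surgically. Esrp1 is a splicing factor made in epithelium, and the labels give the KO embryos as homozygous without describing the allele. By its title, the study concerns clefts of lip and palate, Wnt signalling and exchange between the layers.

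The table gives 1 value per group in TPM, transcripts counted per fixed total of transcripts, a level corrected for transcript length and for library size, so levels of different genes can be set side by side. Every difference below is therefore between single values with no replicate check, no error can be given, and no order of levels can be tested against a spread. Depth is unknown, since TPM keep no record of it. The labels list 2 index barcodes in place of 1 for 5 libraries (1 and 0 in ectoderm and mesenchyme of WT embryos, 2 and 2 in the KO layers), so the kind of index was not balanced between genotypes, and its part in the results was not tested.

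Forkhead factors bind DNA through a winged-helix domain, the forkhead box, that is nearly the same in close relatives. In facial development, Sonic hedgehog made by epithelium reaches the mesenchyme beneath it, relieves the block on Smoothened and activates the Gli factors. Foxf1 and Foxf2 are known hedgehog targets in mesenchyme of the face and gut, and loss of Foxf2 in mice gives cleft palate. Foxl1 is a related gene of gut mesenchyme. Foxc1 and Foxc2 act in neural crest and mesoderm, including the skull vault, the eye and blood and lymph vessels. Foxd1 is best known from kidney stroma, and Foxd2 is its closest paralog among the 10. Foxp1, Foxp2 and Foxp4 form another branch of the family, with a zinc finger and a leucine zipper, and are mostly repressors.

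Paralogs can share reads, so the likeness of their sequences bears on how far their values are separate measurements. The first pair printed is the one with the largest KO differences in mesenchyme, and the second is the pair of Foxp genes that differed most in KO mesenchyme and in base composition. Each line gives 150 bases from the start of the forkhead box coding sequence (GRCm38, GENCODE M21), and capitals mark bases that differ from the partner. Foxf1 is at chr8:121084540-121084689 and Foxf2 at chr13:31626377-31626526, both on the plus strand and both in a coding exon.
Foxf1: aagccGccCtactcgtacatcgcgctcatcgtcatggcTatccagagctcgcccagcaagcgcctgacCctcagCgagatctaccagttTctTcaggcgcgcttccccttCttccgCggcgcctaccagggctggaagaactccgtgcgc
Foxf2: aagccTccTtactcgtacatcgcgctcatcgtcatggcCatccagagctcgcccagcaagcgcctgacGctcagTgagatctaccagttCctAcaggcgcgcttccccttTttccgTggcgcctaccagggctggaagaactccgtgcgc
All 9 differences between these stretches fall on the last base of a codon. Over 300 bases of the box, Foxf1 and Foxf2 were identical at 275 (91.7%), and over the whole transcripts they had 11 stretches of 31 bases in common, 0.461% of those in Foxf1. Foxc1 and Foxc2 were as alike in the box (91.7%, with 34 shared stretches of 31 bases), and so were Foxd1 and Foxd2 (92.7%, with 34 shared stretches). Read length, and what was done with reads that match several genes, is not given in the sources used here.
Foxp2: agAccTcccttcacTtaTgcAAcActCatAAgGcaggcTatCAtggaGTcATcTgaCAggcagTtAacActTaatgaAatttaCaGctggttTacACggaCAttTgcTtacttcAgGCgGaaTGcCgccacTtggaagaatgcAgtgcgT
Foxp4: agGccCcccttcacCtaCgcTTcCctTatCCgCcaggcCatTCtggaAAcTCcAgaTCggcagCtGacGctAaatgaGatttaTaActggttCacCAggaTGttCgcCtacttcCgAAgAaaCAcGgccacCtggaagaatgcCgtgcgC
These 2 stretches span 2 coding exons each, within chr6:15411067-15413812 on the plus strand for Foxp2 and chr17:47871340-47875390 on the minus strand for Foxp4. They differ at 45 bases, 32 of them last bases of a codon, and the differing base is G or C at 14 in Foxp2 and at 27 in Foxp4. Over 300 bases of the box, Foxp2 and Foxp4 were 69.7% identical, and their transcripts shared 0 stretches of 31 bases. The annotation lists 31 transcripts for Foxp1, 20 for Foxp2, 8 for Foxp4 and 1 for every other member, and the table does not separate isoforms.

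The layer labels matched their markers, while the targeted gene was reduced and not absent in KO ectoderm. Esrp1 stood at 170 TPM in ectoderm and 1.01 in mesenchyme of WT embryos, and at 62.9 and 1 in the KO layers. The KO level in ectoderm was 0.370 times that of WT, although the labels give a homozygous KO, and with no description of the allele the source of the remaining RNA was not tested. The 16 surface epithelium markers, such as keratins and E-cadherin, added to 3522 TPM in WT ectoderm and 40.01 in WT mesenchyme, and all 16 were at least 2-fold higher in ectoderm. The 29 mesenchyme markers had a sum of 707 TPM in ectoderm and 5156 in mesenchyme of WT embryos, and of 1204 and 3773 in the KO layers. Some markers on the list are also expressed by ectoderm (Msx2 and Dlx2 were at least 2-fold higher there in WT), and mesenchyme RNA in the ectoderm libraries cannot be told apart from expression in ectoderm cells. As these are bulk samples, fewer cells of a type and less RNA per cell cannot be told apart.

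In WT tissue, 8 of the 10 forkhead genes, which were taken as factors known from mesenchyme, were at least 2-fold higher in mesenchyme. The 2 others, Foxp1 and Foxp4, were at high and similar levels in both layers. Foxf1 had 0.60 TPM in ectoderm and 18.2 in mesenchyme, a 30.3-fold ratio of TPM. Its paralog Foxf2 was at 0.87 and 19.3 TPM, a ratio of 22.2. Both Foxf genes were below 1 TPM in ectoderm, and in mesenchyme they stood above every member outside the Foxp branch. Foxl1 had the lowest level of the 10 in every group, at 0.20 TPM in WT ectoderm and 2.54 in WT mesenchyme.

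Foxd1 came next in mesenchyme, with 13.7 TPM against 0.94 in ectoderm, a ratio of 14.5, and Foxd2 had 5.17 TPM against 0.42. The Foxc genes differed from each other in ectoderm rather than in mesenchyme. Foxc1 had 3.77 TPM in WT ectoderm and 9.25 in WT mesenchyme, a ratio of 2.45, whereas Foxc2 had 0.62 and 7.39 TPM, a ratio of 11.9. The level of Foxc1 was thus 6.08 times that of Foxc2 in WT ectoderm and 1.252 times in WT mesenchyme. Among the Foxp genes, Foxp2 was the one with a layer difference, at 5.93 TPM in WT ectoderm and 27.5 in WT mesenchyme. Foxp1 was at 63.9 and 47.5 TPM, and Foxp4 at 66.6 and 83.5 TPM.

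**Figure D1:**
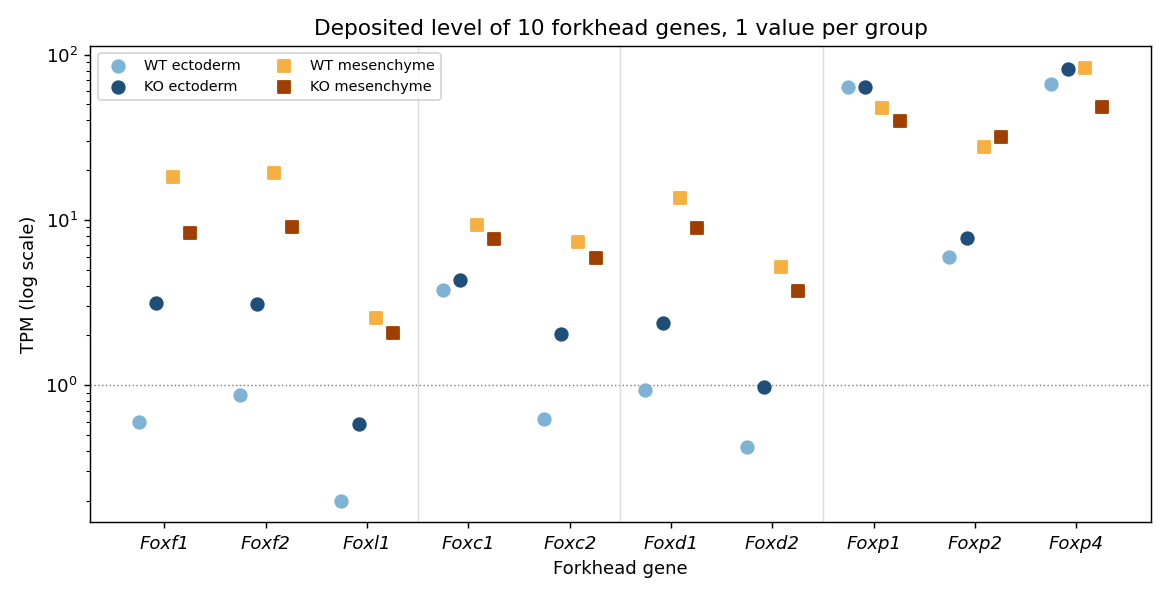
Level of each of the 10 forkhead genes in TPM (vertical axis, log scale), with 1 deposited value per group: circles for ectoderm, squares for mesenchyme, light for WT and dark for KO; the dotted line is at 1 TPM. The Foxf, Foxl, Foxc and Foxd genes sit above WT ectoderm in WT mesenchyme, by 2.45 times for Foxc1 and 11.9 to 30.3 times for the 6 others, with KO ectoderm in between, while Foxp1 and Foxp4 are high in all 4 groups.

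Ratios in the rest of the text are log2 ratios of TPM plus 1, a scale that makes changes of low genes look smaller, and genes were compared if they averaged at least 1 TPM over the groups in question. On that scale the WT difference, ectoderm minus mesenchyme, was -3.58 for Foxf1, -3.44 for Foxf2, -2.92 for Foxd1, -2.37 for Foxc2, -2.12 for Foxd2, -2.04 for Foxp2, -1.56 for Foxl1 and -1.10 for Foxc1. It was 0.42 for Foxp1 and -0.32 for Foxp4. The median of the 10 was -2.08. Foxf1, Foxf2, Foxl1, Foxc2, Foxd1 and Foxd2 were below 1 TPM in WT ectoderm and entered this comparison only through their mesenchyme value. The number of members higher in mesenchyme therefore carries no weight of its own. Over all 14242 genes tested, the median was -0.15, with 12.1% at least 2-fold higher in mesenchyme and 6.88% at least 2-fold higher in ectoderm. Of all calls, 36.3% were higher in ectoderm, and 46.4% after quantile normalization, a scaling that gives all 4 groups the same distribution and moves the median to 0.02.

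The same layer pattern was weaker in KO tissue. There 6 of the 10 members were at least 2-fold higher in mesenchyme (Foxf1, Foxf2, Foxc2, Foxd1, Foxd2 and Foxp2) and 0 in ectoderm, beside 6.88% and 9.06% of 14411 genes. The TPM ratio of mesenchyme to ectoderm was 2.68 for Foxf1, where it had been 30.3 in WT, and 2.92 for Foxf2, where it had been 22.2. It was 2.90 for Foxc2, 3.77 for Foxd1, 3.82 for Foxd2, 3.55 for Foxl1 and 1.79 for Foxc1. Foxp2 kept a ratio of 4.08, near its WT ratio of 4.64. Foxp4 went from 1.254 to 0.589, and Foxp1 from 0.744 to 0.621.

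Of the 34 other forkhead genes of the table, 14 were below 1 TPM in every group, and 17 were tested between the WT layers. Of these 17, 1 was at least 2-fold higher in mesenchyme and 6 in ectoderm, beside 12.1% and 6.88% of all genes tested. Of the 13 forkhead genes of epithelia and placodes, 5 were tested between the WT layers and all 5 were at least 2-fold higher in ectoderm. They include the endoderm and epithelium factors Foxa1 (16.0 TPM in ectoderm and 0.06 in mesenchyme) and Foxa2 (7.96 and 0.03), the thyroid and palate factor Foxe1 (13.2 and 0.04) and the placode factor Foxi3 (10.6 and 0.09). Of 10 widely expressed forkhead genes, such as the cell cycle factor Foxm1 (91.6 and 120 TPM), 0 differed 2-fold between layers. Foxl2, known from ovary and eyelid, was the gene of the 17 at least 2-fold higher in mesenchyme (0.39 and 2.47 TPM). Foxd3 (0.08 and 0.96 TPM) and Foxs1 (0.04 and 0.28) also had higher values in mesenchyme but were too low to be tested. The 10 members made up 28.4% of all forkhead TPM in ectoderm and 38.9% in mesenchyme of WT embryos, and 32.2% and 38.4% in the KO layers.

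**Figure D2:**
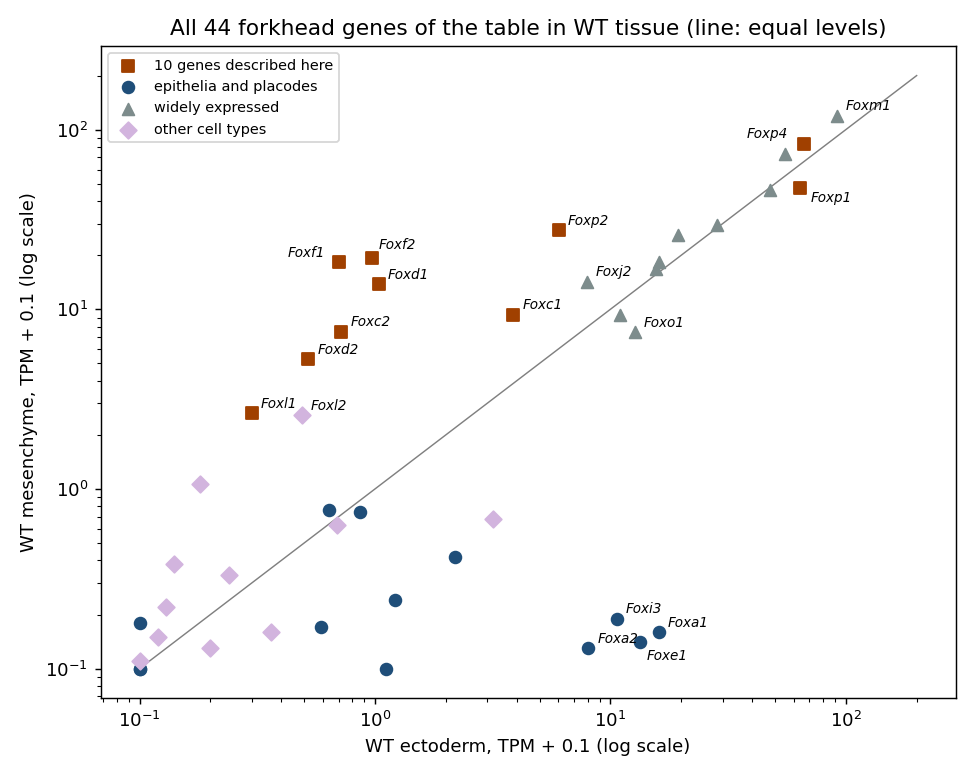
Level in WT ectoderm (horizontal) against level in WT mesenchyme (vertical) for all 44 forkhead genes, as TPM + 0.1 on log scales, with 1 value per gene and group and a line of equal levels. The members with a layer difference lie above the line, Foxp1 and Foxp4 lie near it with the widely expressed genes, and Foxa1, Foxa2, Foxe1 and Foxi3 lie far below it.

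In KO ectoderm the mesenchymal forkhead genes were higher than in WT ectoderm, and the Foxf genes had the largest ratios of the 10. Foxf1 went from 0.60 to 3.12 TPM, a ratio of 5.20 and a log2 difference of 1.36. Foxf2 went from 0.87 to 3.11 TPM, a ratio of 3.57 and a log2 difference of 1.14, so that both genes reached nearly equal levels. Foxl1 was at 0.20 and 0.58 TPM and did not pass the filter on low values. In the Foxc pair, Foxc2 went from 0.62 to 2.04 TPM (log2 difference 0.91), while Foxc1, already present in WT ectoderm, was at 3.77 and 4.30 TPM (0.15). In the Foxd pair, Foxd1 went from 0.94 to 2.36 TPM (0.79), and Foxd2 was at 0.42 and 0.97 TPM (0.47, below the filter). The Foxp genes differed little, with Foxp1 at 63.9 and 63.6 TPM (-0.01), Foxp2 at 5.93 and 7.78 (0.34) and Foxp4 at 66.6 and 81.7 (0.29).

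At 1.5-fold, 4 of the 8 members tested were higher in KO ectoderm and 0 were lower, beside 4.92% higher and 0.452% lower of 13935 genes. The 4 were Foxf1, Foxf2, Foxc2 and Foxd1, each below 1 TPM in WT ectoderm, so they entered the comparison only through their KO value and their number carries no weight of its own. Without the filter, 9 of the 10 members were above 0. The median over all genes was 0.05, with 64.2% of genes above 0. Higher calls were 91.6% of all calls in the table as deposited and 78.1% after quantile normalization. Removing a trend with transcript GC content left Foxf1 at 1.28, Foxf2 at 0.96, Foxd1 at 0.71 and Foxc2 at 0.69.

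Markers of several other cell types moved with these members. Of the 29 mesenchyme markers, 20 were at least 1.5-fold higher in KO ectoderm and 0 lower, with a median of 1.04. All 10 endothelial markers were higher, and their sum went from 20.9 to 56.1 TPM. All 6 skeletal muscle markers tested were higher, and the sum of the 8 listed went from 15.7 to 61.8 TPM. So were all 6 markers of olfactory and nasal ectoderm, from 68.04 to 173.5 TPM. Among pericyte markers 2 of 3 tested were higher (sum 31.5 and 50.5 TPM), among neuron markers 4 of 5 (88.6 and 115 TPM), among macrophage markers 3 of 4 (9.45 and 18.1 TPM), and among those of cartilage and bone 1 of 5 (110 and 150 TPM). Red blood cell markers, which had 12957 TPM in WT mesenchyme, differed less in ectoderm, with 1 of 5 at least 1.5-fold higher, a median of 0.29 and a sum of 3045 and 3375 TPM. The sum for surface epithelium went from 3522 to 2906 TPM, with 2 of 16 lower and 0 higher. No marker of these lists was at 0 in all 4 groups.

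The gain of each forkhead gene was therefore set against its own excess in mesenchyme, with the rise from WT to KO ectoderm in percent of the step from WT ectoderm up to WT mesenchyme. This gain was 14.4% for Foxf1, 12.1% for Foxf2, 16.2% for Foxl1, 9.67% for Foxc1, 20.97% for Foxc2, 11.2% for Foxd1, 11.6% for Foxd2 and 8.56% for Foxp2. Over the 22 mesenchyme markers at least 5 times higher in WT mesenchyme, it had a median of 10.4%, quartiles of 7.17% and 11.5%, and a range of 4.32% to 15.5%. Over all 581 genes at 5 TPM or more and at least 5 times higher in WT mesenchyme, the median was 11.7%. The quartiles were 9.16% and 15.5%, and the range was -2.30% to 45.2%. Foxc2 and Foxl1 lay above the range of the 22 markers, and the other 6 within it. Of these, Foxf1, Foxf2 and Foxd2 were above the markers' upper quartile of 11.5%, Foxd2 only just. This order depended on the baseline. Measured against KO mesenchyme, the gain was 32.4% for Foxf1, 27.3% for Foxf2, 26.8% for Foxc2 and 20.4% for Foxl1. The remaining members named here were at 7.17% to 17.9%, and all lay within the markers' range of 4.52% to 43.4%. Foxl1 rests on less than 1 TPM in ectoderm.

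Subtracting a mesenchyme share from KO ectoderm lowers, by construction, any gene with more TPM in mesenchyme than in KO ectoderm. Every member that had been 1.5-fold higher is such a gene, so only the size of the drop is described. With 10.4% of the WT mesenchyme level taken away and the rest rescaled, the log2 difference from WT ectoderm was 0.57 for Foxf1, 0.58 for Foxc2, 0.26 for Foxf2 and 0.08 for Foxd1, and 0 members were 1.5-fold higher. With 13.3% of the KO mesenchyme level taken away, it was 1.05 for Foxf1, 0.77 for Foxf2, 0.59 for Foxc2 and 0.28 for Foxd1, and 3 members were 1.5-fold higher. The shares are the median gains of the 22 markers against WT and against KO mesenchyme.

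**Figure D3:**
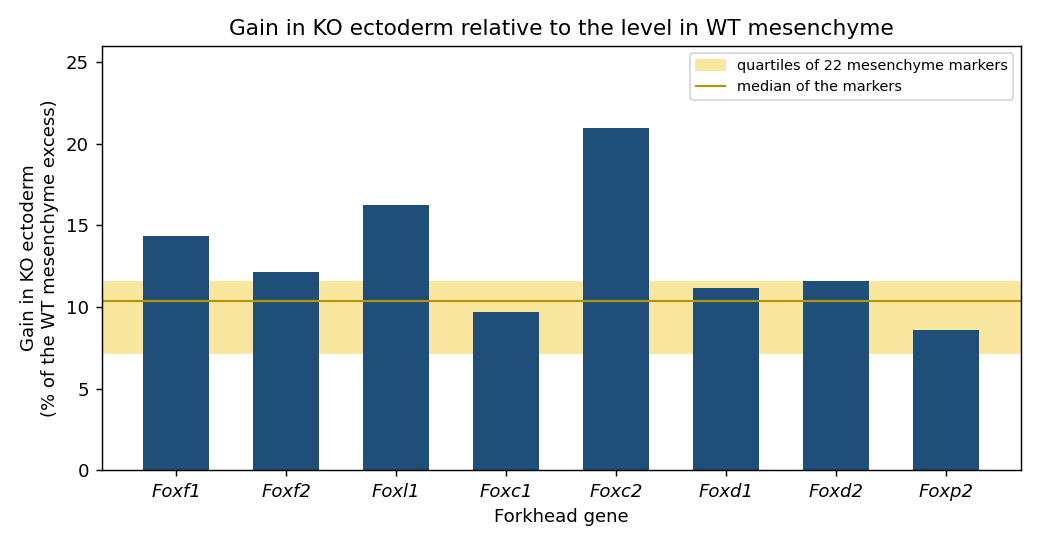
Gain of 8 forkhead genes in KO ectoderm in percent of their excess in WT mesenchyme over WT ectoderm (bars from 0), with the median (line) and quartiles (band) of the same gain over 22 mesenchyme markers. Bars run from 8.56% for Foxp2 to 20.97% for Foxc2. Foxc1 and Foxp2 lie below the markers' median of 10.4%, and Foxd1 lies above it within the band. Foxf1, Foxf2, Foxl1, Foxc2 and Foxd2 lie above the band. Foxp1 and Foxp4 are left out because they had no 2-fold excess in mesenchyme.

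In KO mesenchyme the Foxf genes were at less than 50% of their WT level, the lowest of the 10. Foxf1 went from 18.2 to 8.37 TPM, 46.1% of WT, and Foxf2 from 19.3 to 9.08 TPM, 47.0% of WT. The ratio of Foxf1 to Foxf2 stayed near 1, at 0.940 in WT and 0.922 in KO mesenchyme. Foxl1, which lies 43.6 kb from Foxf1, was at 2.54 and 2.06 TPM, 81.1% of WT.

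The Foxc and Foxd genes had smaller differences in the same direction in the deposited values. Foxc1 was at 9.25 and 7.69 TPM (83.1% of WT) and Foxc2 at 7.39 and 5.92 TPM (80.1%). Foxd1 was at 13.7 and 8.89 TPM (65.1%), just inside 1.5-fold on the scale used for counting, and Foxd2 at 5.17 and 3.71 TPM (71.8%). The paralog ratios within these pairs changed little, from 1.252 to 1.299 for Foxc1 over Foxc2 and from 2.64 to 2.40 for Foxd1 over Foxd2.

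The Foxp genes went different ways. Foxp4 went from 83.5 to 48.1 TPM (57.6% of WT), Foxp1 from 47.5 to 39.5 (83.1%), and Foxp2 from 27.5 to 31.7 (115%), the only member with a higher value in KO mesenchyme. The level of Foxp4 was 3.03 times that of Foxp2 in WT mesenchyme and 1.52 times in KO mesenchyme, and had been 11.2 and 10.5 times in WT and KO ectoderm.

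On the log2 scale the KO differences in mesenchyme were -1.03 for Foxf1, -1.01 for Foxf2, -0.78 for Foxp4, -0.57 for Foxd1, -0.39 for Foxd2, -0.28 for Foxc2, -0.26 for Foxp1, -0.24 for Foxc1, -0.21 for Foxl1 and 0.20 for Foxp2. All 10 passed the filter, 3 were at least 1.5-fold lower (Foxf1, Foxf2 and Foxp4) and 0 higher, beside 13.4% lower and 2.33% higher of 14233 genes. The median of the 10 was -0.33, and that of all genes was -0.12, with 63.4% below 0. Lower calls were thus frequent across the whole table, and their share depended on the scaling. Higher calls were 14.9% of all calls in the deposited values and 39.7% after quantile normalization, which moved the median of all genes from -0.12 to 0.02. After quantile normalization the difference was -0.85 for Foxf1, -0.82 for Foxf2 and -0.58 for Foxp4.

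The KO differences in mesenchyme followed the GC content of the transcripts. Over genes averaging 5 TPM or more, a smooth trend (lowess with a fraction of 0.3) ran from 0.18 at 40% GC through 0.01 at 45%, -0.20 at 50% and -0.42 at 55% to -0.57 at 60% and -0.64 at 65%. Most forkhead genes are rich in G and C. The longest transcript had 54.4% GC in Foxf1, 59.8% in Foxf2, 57.7% in Foxl1, 55.9% in Foxc1, 62.0% in Foxc2, 54.4% in Foxd1, 62.7% in Foxd2 and 63.4% in Foxp4, against a median of 49.7% over 11052 genes. Foxp1 (44.9%) and Foxp2 (42.6%) lay below that median. The trend in ectoderm was smaller, from 0.00 at 40% to 0.27 at 65%.

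With the GC trend removed, the difference in mesenchyme was -0.64 for Foxf1, -0.45 for Foxf2, -0.27 for Foxp1, -0.17 for Foxd1 and -0.16 for Foxp4. It turned from negative to positive for Foxl1 (0.30), Foxc1 (0.21), Foxc2 (0.33) and Foxd2 (0.22), and was 0.10 for Foxp2. Only Foxf1 was then 1.5-fold lower, and the median of the 10 was -0.03. Across the table, 68.4% of all calls were higher after this step, where 14.9% had been. Foxp2 and Foxp4, at 0.20 and -0.78 in the deposited values, were at 0.10 and -0.16. Whether GC content, or what moves with it, caused the differences was not tested.

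**Figure D4:**
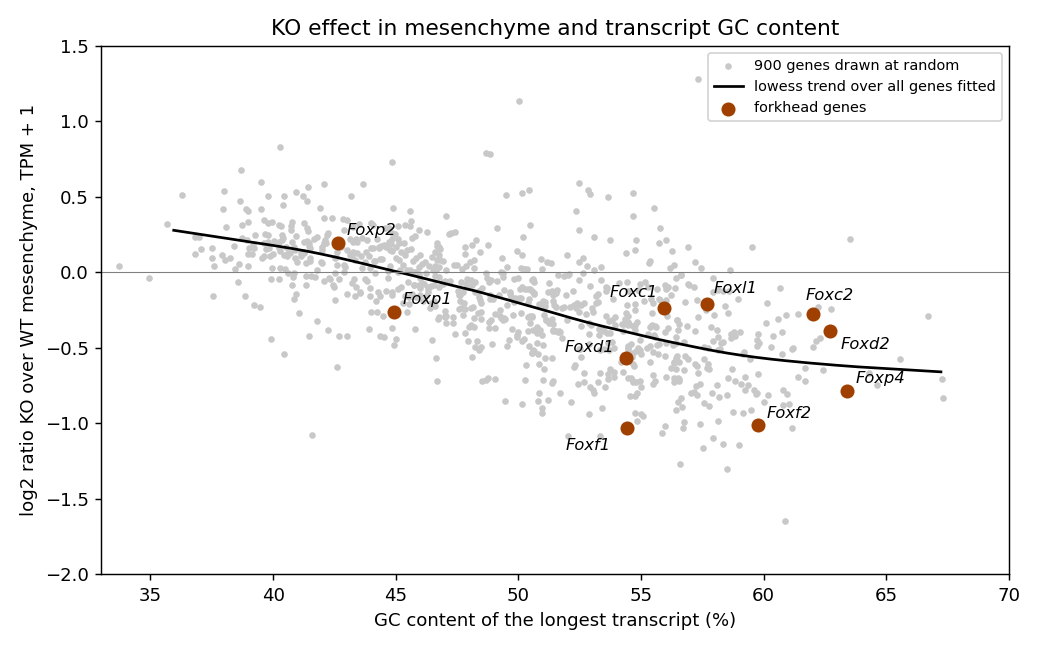
KO difference in mesenchyme (log2 ratio of TPM + 1, vertical) against GC content of the longest transcript in percent (horizontal), for the 10 forkhead genes (large points) and 900 genes drawn at random (small points), with the lowess trend over all genes fitted. The trend falls from 0.18 at 40% GC to -0.64 at 65%; Foxf1 and Foxf2 lie well below it, and Foxc1, Foxc2, Foxl1 and Foxd2 above it.

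The Foxf genes were also set beside other genes enriched in WT mesenchyme. The 581 genes described above, at least 5 times higher in WT mesenchyme, include Foxf1, Foxf2, Foxc2, Foxd1 and Foxd2. Their median difference was -0.38, with quartiles of -0.67 and -0.08, and 175 (30.1%) were 1.5-fold lower, beside 13.4% of all genes tested. These genes were selected for a high WT mesenchyme value, which is also the baseline of the difference, so the selection itself favours lower values and the share is a description only. Foxf1 and Foxf2 lay below the lower quartile, Foxd1 between that quartile and the median, Foxd2 near the median and Foxc2 above it. With the GC trend removed, 577 of these genes had a median of -0.11 and quartiles of -0.33 and 0.11, and 54 (9.36%) were 1.5-fold lower, beside 2.21% of all genes. Foxf1 (-0.64) and Foxf2 (-0.45) again lay below the lower quartile.

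Markers of single cell types moved in KO mesenchyme too. Of 7 cartilage and bone markers 6 were at least 1.5-fold lower, and their sum went from 352 to 221 TPM. Of 6 pericyte markers 3 were lower (151 to 70.6 TPM), of 10 endothelial markers 3 (352 to 259 TPM), of 8 skeletal muscle markers 3 (327 to 242 TPM) and of 29 mesenchyme markers 10. Neuron markers were higher for 3 of 6 (150 to 234 TPM), 1 of 5 red blood cell markers was higher (sum 12957 to 14156 TPM), and 0 of 5 macrophage markers differed 1.5-fold (39.0 and 36.9 TPM). Over all genes tested, 13.4% were lower and 2.33% higher. With the GC trend removed, 2 cartilage and bone, 1 pericyte, 1 endothelial, 2 skeletal muscle and 7 mesenchyme markers were lower. Then 5 neuron markers and 1 red blood cell marker were higher, beside 2.21% lower and 4.77% higher of all genes. The part of these cell types in the lower values of Foxf1, Foxf2 and Foxp4 was not tested.

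**Figure D5:**
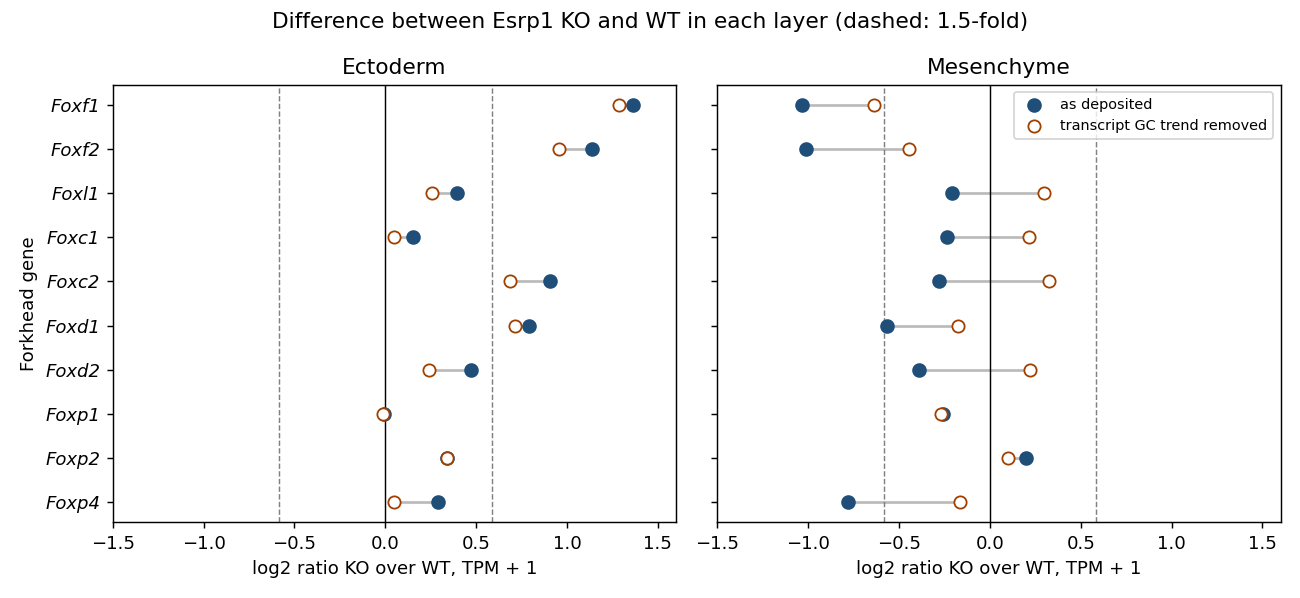
Log2 ratio of KO over WT (TPM + 1) for the 10 forkhead genes in ectoderm (left) and mesenchyme (right), as deposited (filled) and with the transcript GC trend removed (open); dashed lines mark 1.5-fold. In ectoderm removing the trend leaves Foxf1, Foxf2, Foxc2 and Foxd1 beyond 1.5-fold and brings Foxp4 from 0.29 to 0.05, whereas in mesenchyme it takes Foxf2 and Foxp4 inside 1.5-fold and moves Foxl1, Foxc1, Foxc2 and Foxd2 across 0.

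The 2 layers were compared directly through the difference of their KO effects, ectoderm minus mesenchyme. It was 2.40 for Foxf1, 2.15 for Foxf2, 1.36 for Foxd1, 1.19 for Foxc2 and 1.07 for Foxp4, all at least 2-fold. It was 0.86 for Foxd2, 0.61 for Foxl1, 0.39 for Foxc1, 0.25 for Foxp1 and 0.14 for Foxp2. So 5 of 10 members exceeded 2-fold upward and 0 downward, beside 7.34% and 0.593% of 14328 genes, whose median was 0.19. Foxf1, Foxf2, Foxc2 and Foxd1 were below 1 TPM in WT ectoderm and passed the filter through the other groups. A high WT mesenchyme value raises this difference and a low WT ectoderm value does too, so the number carries no weight of its own. Upward calls were 92.5% of all calls as deposited, 72.8% after quantile normalization and 64.1% with the GC trend removed, and 2 members exceeded 2-fold under either, Foxf1 and Foxf2. Of the 29 mesenchyme markers, 19 exceeded 2-fold upward and 0 downward as deposited, and 15 upward with the GC trend removed. As deposited, 9 of 10 endothelial, 6 of 7 cartilage and bone and 5 of 8 skeletal muscle markers also exceeded 2-fold upward. Among 16 surface epithelium markers, 0 did so and 2 exceeded 2-fold downward.

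The hedgehog pathway, which is known to act on the Foxf genes, was followed through 19 listed genes. Its ligand Shh, made by epithelium, was at 34.0 TPM in ectoderm and 0.20 in mesenchyme of WT embryos, and at 20.5 and 0.44 in the KO layers. In ectoderm 15 genes were tested, Shh was the 1 gene at least 1.5-fold lower (-0.71), and 0 were higher, with a median of 0.01, beside 0.452% lower, 4.92% higher and a median of 0.05 over all genes. In mesenchyme 14 were tested, 7 were lower and 0 higher, with a median of -0.57, beside 13.4% lower, 2.33% higher and a median of -0.12 over all genes. They include the transducer Smo (113 and 74.7 TPM, -0.59), the coreceptor Gas1 (76.0 and 47.9, -0.65), the inhibitor Sufu (46.6 and 22.02, -1.05) and the transcription factors Gli1 (72.3 and 38.3, -0.90), Gli2 (41.2 and 17.2, -1.21) and Gli3 (43.7 and 28.0, -0.63).

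Among standard feedback targets of the pathway, Gli1 was thus lower in KO mesenchyme, Ptch1 was at 37.6 and 25.5 TPM (-0.54) and Hhip at 3.51 and 3.44 TPM (-0.02). With the GC trend removed, 2 of the 14 genes were lower, Sufu (-0.60) and Gli2 (-0.71), and the median was -0.18. The Foxf genes, at -1.03 and -1.01, lay between Gli2 and Gli1 in the deposited values, and with the trend removed at -0.64 and -0.45.

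Other forkhead genes set the values of the members in mesenchyme in their family. Of the 34, 11 were tested, 6 were lower and 0 higher, with a median of -0.63, beside the same 13.4% lower over all genes. They were Foxj2 (14.2 and 7.11 TPM), Foxk1 (16.6 and 8.03), Foxm1 (120 and 74.4), Foxo1 (7.36 and 4.08), Foxo3 (18.3 and 9.16) and Foxl2 (2.47 and 1.24), with a median GC content of 53.2% over the 11 tested. With the trend removed, 0 of the 11 were 1.5-fold lower, with a median of -0.22. Foxo1 (-0.584) and Foxo3 (-0.578) were then just inside 1.5-fold, near Foxf1 (-0.64). Foxk1 (-0.50) and Foxj2 (-0.48) were also lower than Foxf2 (-0.45), and the rest of the 11 lay above it. The Foxf values were thus not set apart from those of other forkhead genes after this step.

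The positions of the members bear on whether neighbours moved alike. Foxf1 (chr8:121084386-121088144), Foxc2 (chr8:121116171-121118895) and Foxl1 (chr8:121127940-121130644) lie in 1 cluster on the plus strand (GENCODE M21, GRCm38). Foxc2 is 31.8 kb from Foxf1 and 11.8 kb from Foxl1, and Mthfsd, an enzyme gene on the other strand between Foxf1 and Foxc2, was at 41.5 and 47.4 TPM in ectoderm (WT, then KO) and 51.4 and 43.6 in mesenchyme. Inside this cluster the KO difference in mesenchyme was -1.03 for Foxf1, -0.28 for Foxc2, -0.21 for Foxl1 and -0.23 for Mthfsd. Foxf2 (chr13:31625816-31631403) and Foxc1 (chr13:31806633-31812476) share another cluster, where the KO difference in mesenchyme was -1.01 and -0.24, and Foxq1, 69.7 kb from Foxf2, stayed below 1 TPM in every group. In both clusters the Foxf gene differed more than its neighbours, and the paralogs on different chromosomes resembled each other. Foxd1 (chr13:98354242-98359305, plus), Foxd2 (chr4:114906282-114908873, minus), Foxp1 (chr6:98925338-99522721, minus), Foxp2 (chr6:14901349-15441977, plus) and Foxp4 (chr17:47867133-47924645, minus) lie elsewhere.

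RefSeq promoters on GRCm38.p6, 250 bases before to 50 after a start, were at hand for 6 of the 10 members, 8 promoters in all. They were searched on both strands for the Gli motif TGGGTGGTC, the forkhead motif TAAACA and the TCF and LEF motif CTTTGA, and no matches in these promoters overlapped. The Gli motif was in 0 of the 8 and in 0.253% of all 32851 promoters. The forkhead motif was in all 3 promoters of Foxp1 and in none of the 5 others, against 13.4% of all promoters. The TCF and LEF motif was in 1 promoter of Foxp1, against 16.0%. The upstream 250 bases are shown for Foxf2, the Foxf gene with an entry (chr13:31625566-31625815, plus strand, no motif, with 71.3% GC over the window of 300 bases), and for the Foxp1 promoter with most matches (chr6:99266516-99266765, minus strand, 48.7% GC), with matches in capitals.
Foxf2: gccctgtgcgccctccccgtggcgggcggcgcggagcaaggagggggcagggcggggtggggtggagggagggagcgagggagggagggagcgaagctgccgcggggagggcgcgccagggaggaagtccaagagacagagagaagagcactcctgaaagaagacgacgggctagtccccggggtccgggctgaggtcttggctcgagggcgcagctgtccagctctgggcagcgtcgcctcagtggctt
Foxp1: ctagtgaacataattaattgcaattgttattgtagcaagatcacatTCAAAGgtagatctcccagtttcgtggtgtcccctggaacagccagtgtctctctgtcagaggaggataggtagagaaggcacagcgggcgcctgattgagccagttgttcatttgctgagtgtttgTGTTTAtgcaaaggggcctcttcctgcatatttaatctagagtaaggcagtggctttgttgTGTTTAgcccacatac
In the second, the matches are TCAAAG, the reverse complement of the TCF and LEF motif, and TGTTTA, the reverse complement of the forkhead motif. A match is a description of letters and not a binding site. The 8 promoters of members had 48.7% to 75.3% GC, against a median of 52.7% over all promoters.

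The genes with profiles most like each member over the 4 groups were found by the distance between log2 profiles, each centred on its own mean, among 10631 genes at a mean of 5 TPM or more. Foxf1 was nearest to Acta1, skeletal muscle actin, at a distance of 0.0733 (1.07 and 4.09 TPM in WT and KO ectoderm, 22.5 and 10.3 in WT and KO mesenchyme), followed by Magel2 (0.190) and Thbs4 (0.198), and Foxf2 was at 0.163 from it. Foxf2 was nearest to Acta1 (0.125), the secreted protein gene Scube1 (0.129) and Thbs4 (0.150). Foxd1 was nearest to the Wnt modulator Dact3 (0.0807), Iffo1 (0.0864) and Kcna6 (0.121). Foxp2 was nearest to Car2 (0.0902), Raet1d (0.112) and Rai14 (0.112). Foxc1 was nearest to Zfp334 (0.0366), Plpp1 (0.0436) and Arpc1b (0.0538), Foxp1 to Spty2d1 (0.0309), the chaperone gene Hsp90ab1 (0.0379) and St7 (0.0432), and Foxp4 to Taf1c (0.0391), Inf2 (0.0401) and Fbxo10 (0.0422). Foxl1, Foxc2 and Foxd2 had means under 5 TPM and were not placed. With 4 points per profile, a small distance is a description of these values only.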

How the data were processed

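RNA was sequenced from 16 libraries, and the authors deposited 1 table of TPM, in which each group has a single column. The submitters' processing notes list kallisto 0.43.0, STAR 2.5.2a and the build mm10. Which of these gave the values, which annotation served and how 4 libraries became 1 column is not given in the sources used here. The column sums ran from 917993 to 977371 TPM.

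The log2 ratio of TPM + 1 was taken between groups for genes averaging 1 TPM or more. Sizes of 1.5-fold (KO against WT) and 2-fold (layers, and difference of KO effects) were used for counting. A model across libraries (limma) had been planned and was not run, since it needs a value per library, so no p-value is given. The members and lists were chosen with earlier results of these data known. All 10 members are named, with list genes past the size or needed beside a member, and the 3 genes nearest to each member at 5 TPM or more. A few list genes counted are not reported by name here. Of 103 symbols in several rows, 0 were members.

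Positions, transcript GC content and coding sequences came from GENCODE M21, which matched 99.0% of symbols, and promoters from RefSeq. Coding sequences were compared in place of proteins, which had been planned. GC and length trends were fitted on genes at a mean of 5 TPM or more. Python 3.11.15, pandas 2.3.3 and statsmodels 0.14.6 were used, and the counting was tested on simulated data. Other pseudocounts, filters, scalings, sizes, trend corrections and subtracted mesenchyme shares were tried.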

Additional observations from a re-analysis of the deposited data

Results flagged for a closer look

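The KO differences of Foxf1 and Foxf2 pointed opposite ways in the layers, higher in ectoderm and lower in mesenchyme. The difference between the effects was 2.40 on the log2 scale for Foxf1 and 2.15 for Foxf2. Of the 29 mesenchyme markers, 27 were above 0 in ectoderm and 24 below 0 in mesenchyme. For 19 of the 29, the difference between the effects was at least 2-fold upward. The pattern was thus not particular to the Foxf genes. With 1 value per group, the difference between the effects was not tested.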

How the results depend on the processing

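No paired analysis was possible because the table has 1 value per group, so replicate numbers could not be used, and leaving out single libraries and the replicate block were not run for the same reason. Of 190 alternative values of the counts, 157 stayed within 1.5 times the count reported, and 33 moved further. The 2 added alternatives (GC and length removed in turn, and the median GC of all transcripts) were chosen after the data were seen. In KO ectoderm the number of members higher went from 4 to 0 with a pseudocount of 5 TPM, to 0 with a mean of at least 5 TPM, to 2 at 2-fold and to 0 with the WT mesenchyme share subtracted. In KO mesenchyme the number lower went from 3 to 5 at the smaller size tried, and to 1 with GC, GC and length, or the median GC removed. For the difference of KO effects, the number higher went from 5 to 3 with a pseudocount of 5 TPM, 2 with quantile normalization, 2 at 3-fold, 2 with GC removed, 3 with length removed, and 2 with GC and length or the median GC removed. Between WT layers, members higher in mesenchyme went from 8 to 5 with a pseudocount of 5 TPM and to 5 with a mean of at least 5 TPM. Between KO layers they went from 6 to 1 with that pseudocount and to 1 at 3-fold, and members higher in ectoderm went from 0 to 2 at 1.5-fold. For the hedgehog list in ectoderm, genes higher went from 0 to 2 at the smaller size, and genes lower from 1 to 0 at 2-fold, 2 at the smaller size and 0 with either mesenchyme share subtracted. In mesenchyme its genes lower went from 7 to 4 with a pseudocount of 5 TPM, 4 with quantile normalization, 2 at 2-fold, 11 at the smaller size, 2 with GC, 3 with length, 1 with GC and length and 2 with the median GC removed. A pseudocount of 5 TPM shrinks low genes by construction, and a higher filter leaves fewer members to count. Subtracting a mesenchyme share lowers, also by construction, genes with more TPM in mesenchyme than in KO ectoderm. For the rest the cause was not tested. Levels under 1 TPM, those of 6 members in WT ectoderm, have no known counting error.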

Other observations

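Of 13 genes linked to Foxf and Foxc action in the face, 5 were at least 1.5-fold higher in KO ectoderm (Fgf18, Fgf10, Osr2, Tbx2 and Alx4) and 5 lower in KO mesenchyme (Fgf18, Osr2, Tbx1, Alx4 and Lef1), beside 4.92% higher and 13.4% lower of all genes in those comparisons. Mesenchyme markers, 4 of which (Osr2, Alx4, Msx1 and Msx2) are on this list too, were higher in KO ectoderm for 20 of 29 and lower in KO mesenchyme for 10 of 29. The growth factor gene Fgf18, known to be restrained by Foxf2 in the palate, had 0.70 and 2.22 TPM in ectoderm of WT and KO embryos, and 7.84 and 4.08 TPM in their mesenchyme. The palate factor gene Osr2 was at 6.04, 13.1, 59.8 and 25.5 TPM in the same order, and the Wnt effector gene Lef1 at 40.9, 37.7, 82.9 and 39.3 TPM. The median difference of the list in mesenchyme was -0.48, and -0.26 with the GC trend removed, when 3 genes were 1.5-fold lower.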
